A study of Mus musculus with 32 samples.

Results

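Sites where histone H3 lysine 9 trimethylation (H3K9me3) was called in male mouse germ cells at birth, and at no other stage examined, are described here. Autosomes were divided into bins of 1 kb, and a bin counted as called in a peak list when at least 50% of it lay in peaks. The P0-only bins were chosen by the calls themselves: a bin had to be called in both lists of postnatal day 0 (P0) and in none of the 6 lists of the embryonic stages E13.5 and E16.5 (in days) and of postnatal day 3 (P3). Of 2460001 autosomal bins, 11053 met this rule, which is 0.449% of all bins. They were 4.24% of the 260866 bins called in both P0 lists, which in turn made up 10.6% of all bins. Adjacent P0-only bins were joined into 9008 runs.

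The samples were germ cells isolated from testes of male mice that carried the Mvh-Venus transgene, a germ cell reporter, and they cover 2 embryonic and 2 postnatal stages. At each of the 4 stages 1 group was Morc1 (+/-), called het, and 1 was Morc1 (-/-), called KO. For each group 2 H3K9me3 samples exist and 1 peak list was used, so no value has a replicate error and all comparisons describe the lists. The control animals lack 1 functional Morc1 allele, no wild-type group is analysed here, and strain and number of animals are not given in the sources used here. Autosomal peaks numbered from 50191 (E13.5 het) to 89020 (P0 KO) per list. Read depth is unknown, and a longer list can call more bins. Peak lists hold no expression, so the identity of the cells was not checked by expression of markers. The germ cell genes Ddx4 and Dazl, the Sertoli cell genes Sox9 and Amh and the Leydig cell genes Cyp17a1 and Insl3 contained no P0-only bin, and neither did the gene body of Morc1. These absences differ in kind. Dazl, Amh, Cyp17a1 and Insl3 had no called base pair in any list. Ddx4, 54.3 kb long, had 11.7 kb called in P0 het and 12.2 kb in P0 KO. It had 6.79 kb in E16.5 KO and 27.5 to 50.2 kb in the remaining lists. The lack of a P0-only bin thus does not mean that Ddx4 was unmarked. Among the marker genes of other cells, the endothelial genes Pecam1 and Cdh5 also had no P0-only bin. The macrophage and leukocyte genes Adgre1 and Ptprc had 4 and 2 such bins. Other somatic testis genes did hold such bins: Fshr of Sertoli cells had 3, Hsd3b1 of Leydig cells 1 and the smooth muscle gene Myh11 1. In all, 5 of 22 somatic genes (22.7%) had at least 1, against 7.06% of all autosomal protein-coding genes. An E13.5-only bin was likewise found in 5 of the 22, so such a count was not particular to P0. Longer genes held P0-only bins more often, with 31.0% of genes of 100 to 500 kb.

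H3K9me3 is deposited by SETDB1, SUV39H1 and SUV39H2, is bound by HP1 proteins and marks compact, silent chromatin such as pericentromeric repeats and many retrotransposons. Male germ cells of the fetal and newborn testis, called gonocytes or prospermatogonia, are arrested in the cell cycle. In this period they rebuild DNA methylation that was erased earlier and silence transposons through the piRNA pathway, and they resume division after birth. Morc1 encodes a nuclear ATPase of the MORC family that is needed for transposon silencing in these cells.

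Few P0-only bins lay at gene starts, and the longest runs that did had few or no called base pairs at other stages, which the rule favours. Start windows of 300 bases, from 250 bases before to 50 bases after an annotated start, were taken from RefSeq (GRCm38.p6, the build that the submitters' processing notes name as mm10). Of 31396 windows on autosomes, 70 had at least 50% of their bases in P0-only bins, or 0.223%. The 5 genes with the longest runs at their start window were Tomm40 and the adjoining lncRNA gene Gm38955, which are transcribed in opposite directions, then Taf6l, the lncRNA gene 1700034K08Rik and Khdc1b. Tomm40 encodes the pore of the mitochondrial outer membrane translocase, Taf6l a subunit of a histone acetyltransferase complex, and Khdc1b a KH-domain protein. The upstream bases outside protein-coding gene bodies are shown for 4 of these 5 to compare CpG content, with each CpG in capitals, 5′ to 3′ on the strand of the gene. Tomm40 lies on the minus strand (chr7:19715443-19715679 shown), Taf6l on the minus strand (chr19:8786418-8786566), 1700034K08Rik on the minus strand (chr9:93005734-93005983) and Khdc1b on the plus strand (chr1:21383306-21383555).
Tomm40: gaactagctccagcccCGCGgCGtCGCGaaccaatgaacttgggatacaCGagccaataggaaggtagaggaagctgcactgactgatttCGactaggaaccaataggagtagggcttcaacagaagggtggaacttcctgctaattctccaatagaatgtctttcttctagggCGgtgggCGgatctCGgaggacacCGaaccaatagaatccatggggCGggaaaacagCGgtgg
Taf6l: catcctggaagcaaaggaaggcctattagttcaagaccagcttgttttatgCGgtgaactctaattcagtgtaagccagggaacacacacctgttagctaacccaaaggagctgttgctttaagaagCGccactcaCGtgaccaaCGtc
1700034K08Rik: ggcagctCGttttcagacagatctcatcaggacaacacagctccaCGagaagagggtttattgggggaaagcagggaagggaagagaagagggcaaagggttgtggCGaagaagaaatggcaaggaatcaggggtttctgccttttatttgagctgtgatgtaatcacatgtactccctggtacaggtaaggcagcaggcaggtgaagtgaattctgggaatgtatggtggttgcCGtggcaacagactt
Khdc1b: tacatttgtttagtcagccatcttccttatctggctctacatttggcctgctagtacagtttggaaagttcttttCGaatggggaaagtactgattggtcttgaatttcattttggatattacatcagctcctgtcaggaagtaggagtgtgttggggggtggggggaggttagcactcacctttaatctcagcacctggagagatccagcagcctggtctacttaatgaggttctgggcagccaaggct

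The 4 sequences differ in CpG content. The stretch shown holds 13 CpG for Tomm40, 4 for Taf6l, 4 for 1700034K08Rik and 1 for Khdc1b. Over the whole 300-base window the counts are 23, 15, 4 and 1, and the window of Gm38955 has 30. The Tomm40 stretch of 237 bases also holds 5 matches to CCAAT or its reverse complement ATTGG. The Taf6l stretch of 149 bases holds none, while the whole 300-base window of Taf6l does hold a match. Such a match was present in 40.0% of the P0-only windows and in 37.3% of all windows.

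The P0-only run at Tomm40 and Gm38955 spanned 5 kb (chr7:19713001-19718000) and also overlapped Nectin2. Peaks covered 4.77 kb of it in P0 het and all 5 kb in P0 KO, and no base pair of it in any of the other 6 lists. The run at Taf6l (chr19:8784001-8789000) was of the same length, was covered in full in both P0 lists and had no called base pair elsewhere. The run at 1700034K08Rik (chr9:93003001-93007000) had P0 coverage of 3.75 kb (het) and 3.90 kb (KO), 0.212 kb in P3 het and none in the other 5 lists. The run at Khdc1b (chr1:21382001-21385000) was covered in full in both P0 lists and had 0.448 kb in P3 KO. At all 4 sites the 2 genotypes had nearly equal calls at P0, and the embryonic lists had none. The rule favours both traits, since it asks for calls in both P0 lists and none in the embryonic lists.

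The share of windows rich in CpG was higher among P0-only starts than among all starts marked at P0. At least 10 CpG were found in 13 of the 70 P0-only windows (18.6%), in 58 of 1386 windows covered to at least 50% by bins called in both P0 lists (4.18%), and in 44.0% of all autosomal windows. By the same rule applied to the other stages, the share was 64.1% of 248 E13.5-only windows, 12.1% of 58 E16.5-only windows and 3.09% of 97 P3-only windows. The 13 windows belonged to 10 runs, since neighbouring genes with opposite strands share a run. In 7 of these 10 runs no base pair was called in the 6 other lists, against 28 of the 55 runs at windows with fewer CpG. Counted by bin, it was 54.7% of all P0-only bins. The rule used these 6 lists and the runs are few, so no difference between the 2 kinds of window is drawn.

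**Figure D1:**
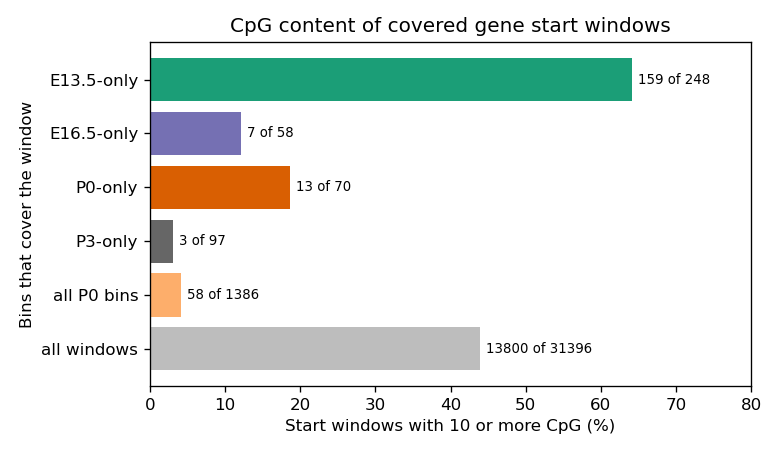
Share of 300-base gene start windows with 10 or more CpG (x axis, percent) among windows of which at least 50% lies in bins of each set (y axis), with the count of windows beside each bar. The P0-only bar stands at 18.6%, above the bar for all P0 bins (4.18%) and below the bars for E13.5-only windows (64.1%) and for all windows (44.0%).

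The CpG-rich P0-only starts included 5 protein-coding genes beside Tomm40 and Taf6l whose window held 16 CpG or more: Zbtb5, Rps6ka2, Ttc21a, Gorasp1 and 4933405L10Rik, named after their values were seen. Rps6ka2 encodes a ribosomal S6 kinase and had 24 CpG in its window; its 2 kb run was covered in full in P0 het and P0 KO and had no call in the other lists. Zbtb5 encodes a BTB zinc finger protein and had 17 CpG. In its 2 kb run, shared with the lncRNA gene 1700055D18Rik, 1.87 kb were called in P0 het and 1.52 kb in P0 KO and none in the other lists. Ttc21a (24 CpG) and Gorasp1 (22 CpG) are neighbours on opposite strands. Gorasp1 encodes a Golgi stacking protein. Their common 1 kb bin had P0 coverage of 0.659 kb (het) and 0.727 kb (KO), and P3 coverage of 0.332 kb (het) and 0.228 kb (KO), so it was partly called at P3. Other P0-only starts lay in multigene families, where reads can map to several copies and calls are therefore less certain, such as Olfr113, Olfr765 and Vmn2r23, receptors of the olfactory and vomeronasal epithelia. For Olfr113 the 2 kb run at the start was covered in full in both P0 lists and had 0.136 kb in E16.5 KO only.

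Most P0-only sites were short. Of the 9008 runs, 7369 (81.8%) were 1 bin long, 1317 were 2 bins and 322 were 3 bins or more. The latter held 9.50% of the P0-only bins. The share was 30.7% when only the 50191 longest autosomal peaks of each list were kept. That setting removes short peaks, so it favours longer runs. The longest were 2 runs of 7 kb, followed by 1 of 6 kb and 15 of 5 kb. Bins called at 1 other stage only formed runs of a similar kind. Single-bin runs were 76.4% of 4091 E13.5-only runs, 74.3% of 9545 E16.5-only runs and 79.9% of 11425 P3-only runs. In contrast, 28.4% of the 73353 runs of all bins called in both P0 lists were single bins. The other stages gave 5346 E13.5-only, 13251 E16.5-only and 14597 P3-only bins, or 3.75%, 5.32% and 6.26% of the bins called in both lists of the stage. With the 50191 longest peaks of each list, the ratio of P0-only to E13.5-only bins was 0.951 in place of 2.07. The order of these stages thus reversed. That setting removed no peak from E13.5 het and the shortest peaks from the P0 lists, so it changed peak length as well as number.

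Within the P0-only bins, which by the rule are called in both P0 lists, the calls of both genotypes were alike. Mean coverage of a bin was 846 bp in P0 het and 875 bp in P0 KO, and 43.8% and 51.0% of the bins were covered in full. In the other lists the mean was 11.1 bp (E13.5 het), 16.47 bp (E13.5 KO), 53.0 bp (E16.5 het), 46.5 bp (E16.5 KO), 54.0 bp (P3 het) and 80.7 bp (P3 KO). These values follow from the rule and are given as a description. No base pair was called in any of the 6 other lists in 6042 bins (54.7%). A partial call was most frequent in P3 KO, where 3286 bins (29.7%) had at least 1 bp in a peak, and least frequent in E13.5 het, with 545 bins (4.93%).

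Some members stood close to the limits of the rule. In 1242 of them (11.2%) the lower of the 2 P0 values was 500 to 549 bp, and 1424 bins without a call at other stages stood just outside, at 450 to 499 bp. In 901 members (8.15%) the highest value in the 6 other lists was 450 to 499 bp. A further 1209 bins called in both P0 lists had a highest value of 500 to 549 bp there and were not members.

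The requirement for both genotypes removed many bins. From the 4 het lists alone 37722 bins were called at P0 only, and from the 4 KO lists alone 38614 bins. The 11053 bins in common were 29.3% of the het set and 28.6% of the KO set. These low shares belong to bins called at P0 only and not to P0 calls at large. In all, 260866 bins of 1 kb were called in both P0 lists, whose peaks covered 309 Mb in het and 324 Mb in KO. For E13.5 the shared bins were 47.2% of the het set and 26.6% of the KO set, for E16.5 28.5% and 50.3%, and for P3 42.1% and 33.6%. Of the 26669 bins that were P0-only in het and not in KO, 10228 were called at P0 in KO as well, but also at another KO stage, and 14224 were called in no KO list. Of the 27561 bins that were P0-only in KO and not in het, 5548 were called at P0 in het and 18616 in no het list.

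P0-only bins mostly lay beside regions marked at other stages, as did E16.5-only and P3-only bins, but less often than P0 bins at large. Of the 9008 runs, 5488 (60.9%) had a bin called at another stage directly on 1 side and 882 (9.79%) on both sides, so that the P0 call filled a gap. The remaining 2638 (29.3%) had none. Among bins, 61.8% (95% Wilson interval 60.9 to 62.7%) were next to such a bin. The share was 30.2% when members with any called base pair at another stage were left out. By the same count it was 40.4% of E13.5-only, 54.0% of E16.5-only and 61.0% of P3-only bins. Of all bins called in both P0 lists it was 96.4%, but all of these except the P0-only bins are themselves called at another stage. Intervals here cover counting error only and treat bins as independent, which neighbouring bins are not. Runs without a neighbouring call were 51.0% of the E13.5-only, 31.0% of the E16.5-only and 26.2% of the P3-only runs.

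**Figure D2:**
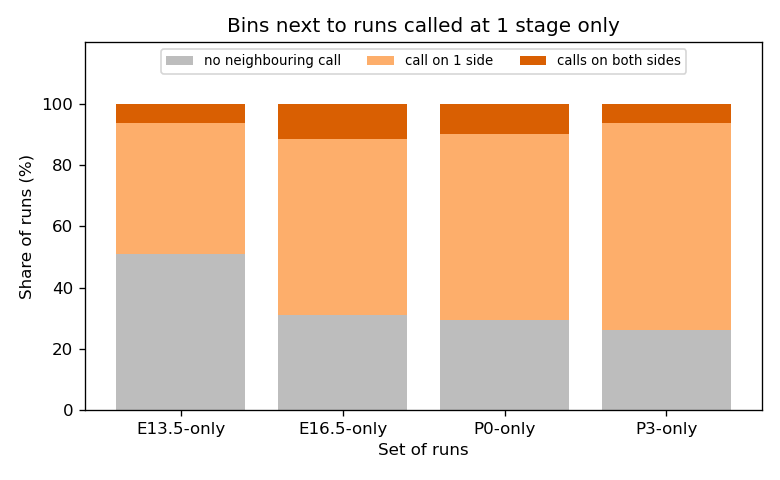
Share of runs (y axis, percent) with no bin called at another stage directly beside them, with such a bin on 1 side, or on both sides, for runs called in both genotypes at 1 stage only (x axis). In the P0-only bar, 29.3% of the runs have no neighbouring call, 60.9% have 1 and 9.79% have calls on both sides.

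The neighbouring calls came mostly from E16.5 and P3. A bin next to the run was called in P3 KO for 53.7% of the runs, in P3 het for 44.7%, in E16.5 het for 39.6% and in E16.5 KO for 36.9%. For E13.5 the shares were 12.1% in het and 14.9% in KO, from lists that were also the shortest. By stage, 2184 runs (24.2%) touched calls of P3 alone, 2069 (23.0%) calls of E16.5 and P3, and 1171 (13.0%) calls of all 3 other stages. Calls of E16.5 alone were touched by 540 runs (5.99%). Far fewer runs stood alone: 809 (8.98%) were at least 10 kb from the nearest bin called at another stage, and 291 (3.23%) at least 20 kb.

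The average pattern around the runs showed the same arrangement, in part through the rule. At the centre, 82.9% of the bin was covered in P0 het and 86.2% in P0 KO. At 1 kb the means were 48.3% and 51.8%, at 2 kb 28.2% and 28.9%, and at 20 kb 16.7% and 16.6%. In P3 het the coverage was 5.92% at the centre, 18.5% at 1 kb, 20.9% at 2 kb and 13.8% at 20 kb. E16.5 het had 5.72%, 16.7%, 19.6% and 14.99% at the same positions. The dip at the centre in these lists is imposed by the rule. The values at 2 kb are not free of it. In longer runs a bin at 2 kb is itself a member. A run also ends where a P0 bin is called at another stage, which raises coverage beside it. At 2 kb the E16.5 and P3 lists stood above their own values at 20 kb, with the smallest gap in E16.5 KO (18.1% against 13.8%). In E13.5 het the 2 values were 7.32% and 6.94%. Coverage at 20 kb was also above the autosomal average of each list, for example 16.7% against 12.6% in P0 het, 14.99% against 11.9% in E16.5 het and 13.8% against 11.3% in P3 het.

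**Figure D3:**
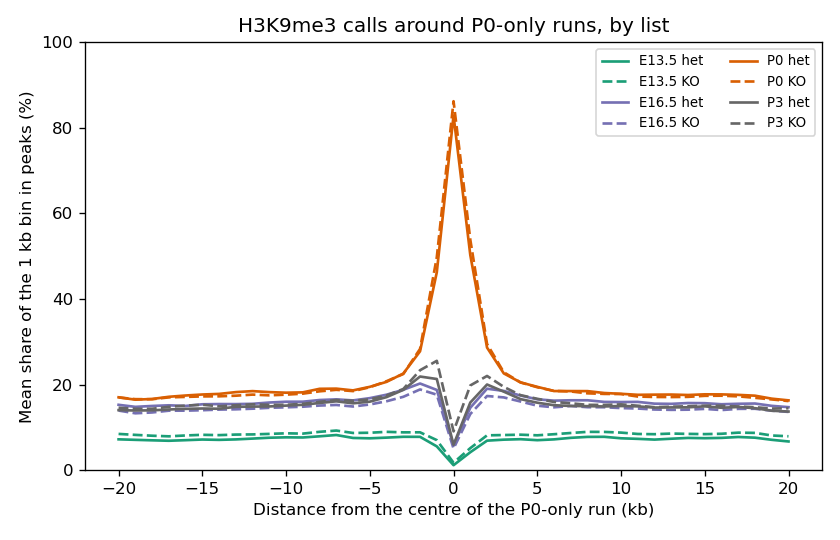
Mean share of each 1 kb bin covered by peaks (y axis, percent) against the distance from the centre of the P0-only runs (x axis, kb) in the 8 lists, with het as solid and KO as dashed lines. Both P0 lists peak at the centre, at 82.9% and 86.2%, while the E16.5 and P3 lists have shoulders near 2 kb and a dip at the centre that the rule imposes.

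The peaks that hold P0-only bins give the same picture at base-pair resolution. In P0 het, 8790 of 82082 autosomal peaks held such a bin and had a median length of 2151 bp, against 2482 bp for all P0 het peaks. In P0 KO, 8773 of 89020 peaks did, with a median of 2367 bp against 2346 bp. Of these peaks, 69.6% in het and 70.1% in KO overlapped a peak of another stage by 1 bp or more. Peaks without any base pair in common with the 6 other lists numbered 5567 in P0 het (6.78%) and 8816 in P0 KO (9.90%), whether or not they held a P0-only bin. Their median length in both equalled the most common peak length of all lists, about 1 kb. Of these stage-specific peaks, 50.4% in het and 31.3% in KO overlapped a P0 peak of the other genotype.

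The longest of these peaks differed between the genotypes. In P0 het the 5 longest were 10.004 kb (chr19:15150731-15160734, between Tle4 and Psat1), 8.76 kb (chromosome 1, between Pth2r and Crygf), 7.43 kb (chromosome 6, between Chl1 and Cntn6), 7.295 kb (chromosome 5, between G6pd2 and Arap2) and 7.05 kb (chromosome 14, between Olfm4 and Pcdh17). None of the 5 overlapped a P0 KO peak, so none held a P0-only bin. In P0 KO the longest was the 6.70 kb peak at Tomm40 and Nectin2 (chr7:19711452-19718148), where the het peak covered 4.98 kb. The next were 5.56 kb between Gk2 and Antxr2, 5.52 kb at Taf6l, 5.20 kb in Nrxn2 and 5.13 kb between Akap7 and Epb41l2. All 5 overlapped a het peak, which covered 2.11 kb of the second, 5.33 kb of the Taf6l peak, 1.26 kb of the Nrxn2 peak and 1.25 kb of the last. With 1 list per genotype, this difference was not tested.

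The longest runs lay mostly between genes. Of the 18 runs of 5 kb or more, 4 overlapped a protein-coding gene: those in Cyp2j8, at Tomm40 and Nectin2, at Taf6l and in Catsperb, a sperm cation channel gene named after its values were seen. No base pair was called at other stages in 10 of the 18, and 13 adjoined a bin called there. The 10 described here were taken in order of length and, among the 15 tied at 5 kb, in genome order. The first spanned 7 kb between Slc39a10 and Tmeff2 (chr1:50136001-50143000). It was covered by 7 kb in P0 het and 6.68 kb in P0 KO and by no base pair in the 6 other lists. It was part of a P0 het peak of 22.9 kb and a P0 KO peak of 15.01 kb, and bins called at other stages adjoined it on both sides. The second spanned 7 kb between Kcnc2 and Atxn7l3b (chr10:112819001-112826000), with P0 coverage of 6.59 kb (het) and 6.57 kb (KO) and none elsewhere. The third lay among olfactory receptor genes between Olfr1234 and Olfr1238 (chr2:89384001-89390000), with P0 coverage of 6 kb (het) and 5.64 kb (KO) and at most 0.255 kb in another list. In this family, reads can map to several copies.

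The others described were 5 kb long. A run in the gene desert between Snx16 and Ralyl (chr3:11397001-11402000) sat inside P0 peaks of 20.6 kb in het and 20.7 kb in KO and had at most 0.085 kb in P3. A run between Agtr1b and Tbl1xr1 (chr3:21487001-21492000) had P0 coverage of 4.97 kb (het) and 4.51 kb (KO) and no call in the other lists or in the bins beside it. A run in Cyp2j8 (chr4:96480001-96485000), a cytochrome P450 gene, was covered in full at P0. It had between 0.426 and 0.552 kb in 5 of the other lists and none in E13.5 het. The remaining 5 kb runs of the 10 lay between Ythdf3 and Cypt12, between Pglyrp4 and S100a7l2, between Cylc2 and Smc2, and at Tomm40.

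P0-only bins were spread over all autosomes. Their share of the bins called in both P0 lists ranged from 3.53% on chromosome 7 to 5.42% on chromosome 10. Of 2469 windows of 1 Mb, 2221 held at least 1 P0-only bin, and the median was 4. The window with the most held 37, on chromosome 3 from 4 to 5 Mb, between Hnf4g and Zfhx4 and without a protein-coding gene. Its called length, het then KO, was 249 kb and 308 kb for E13.5, 561 kb and 520 kb for E16.5, 536 kb and 510.4 kb for P0, and 330.2 kb and 356 kb for P3. Coverage was thus high at E16.5 and P0 and lower at P3, and the P0-only bins were 7.97% of the bins called in both P0 lists there. The second window, with 29 bins, was on chromosome 1 and overlapped Sntg1. The third, with 23, was on chromosome 7 and overlapped Luzp2, Siglech, Tubgcp5, Cyfip1, Nipa2 and Nipa1.

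P0-only bins lay outside genes more often than bins of the genome at large. The midpoint was in a protein-coding gene body for 2509 of them, or 22.7% (95% Wilson interval 21.9 to 23.5%). For all autosomal bins this share was 40.0%, and for all bins called in both P0 lists it was 19.8%. The P0-only share was above that of all P0 bins on 14 of 19 autosomes. It resembled E16.5-only bins, with 18.97% (18.3 to 19.6%), and was lower than that of E13.5-only bins, with 45.9% (44.6 to 47.2%), and of P3-only bins, with 50.9% (50.1 to 51.7%). The order against E13.5 and against P3 was the same on 19 of 19 autosomes. Against E16.5 the P0-only share was higher on 12 and lower on 7. By autosome, the P0-only share ranged from 17.0% to 27.8%, and the P3-only share from 42.8% to 57.8%.

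**Figure D4:**
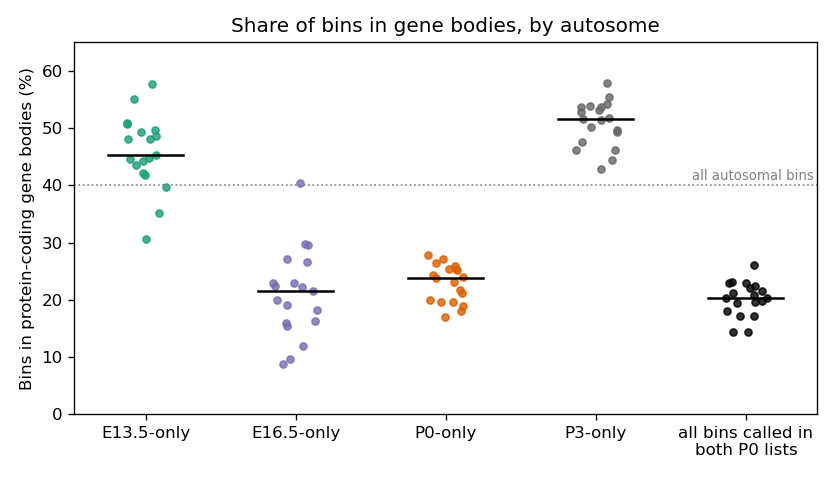
Share of bins with their midpoint in a protein-coding gene body (y axis, percent), with 1 point per autosome and the median as a line, for the 4 stage-only sets and for all bins called in both P0 lists (x axis). P0-only bins range from 17.0% to 27.8%, below every autosome's P3-only share and below the dotted line at 40.0% for all autosomal bins.

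The position relative to genes differed between P0-only sites that stood alone and those that adjoined other calls. Of bins in runs that touched a bin called at another stage, 20.7% were genic (19.8 to 21.6%). In runs without such a neighbour it was 27.7% (26.2 to 29.3%), and in runs at least 10 kb from any call of another stage it was 37.3% (34.3 to 40.4%). The same 3 shares were 47.0%, 60.3% and 71.9% for P3-only bins, so the P3-only set had a larger genic share than the P0-only set in each class. For E16.5-only bins they were 15.96%, 26.3% and 40.99%, and for E13.5-only bins 36.3%, 55.2% and 63.8%. The genic share thus rose in the same order in every stage-only set and was not particular to P0. The 37.3% of the most distant P0-only runs was near the 40.0% of all autosomal bins. Bins within 1 kb of an annotated start were 0.905% of the touching and 1.77% of the isolated P0-only bins. Over the 10674 P0-only bins outside chromosome 18, which has no start windows here, the share was 1.15%. It was 1.02% of all P0 bins, 1.00% of E16.5-only, 1.49% of P3-only and 7.22% of E13.5-only bins. Of the P0-only bins, 39.8% were at least 100 kb from a protein-coding gene, between 60.2% for E16.5-only bins and 18.8% for P3-only bins.

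Among autosomal protein-coding genes, 1458 of 20665 (7.06%) had the midpoint of a P0-only bin in the gene body, and 1946 (9.42%) had one there or within 5 kb. Of the 1458 genes, 957 had 1 such bin and 82 had 5 or more. The share was larger for longer genes: 1.08% of genes under 20 kb held a P0-only bin, 7.16% of genes of 20 to 100 kb, 31.0% of genes of 100 to 500 kb and 77.3% of longer genes. Per Mb of gene body the numbers were 1.67, 2.04, 2.67 and 3.53 bins.

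The genes with the most P0-only bins were long, and several encode membrane or synaptic proteins. Sntg1, which encodes gamma-1 syntrophin, a scaffold protein of the dystrophin complex, had 26 P0-only bins in 22 runs over 942 kb. Its called length, het then KO, was 109 kb and 119 kb for E13.5, 212 kb and 204 kb for E16.5, 300.3 kb and 289 kb for P0, and 212 kb and 217 kb for P3. Both P0 lists were thus higher than the lists of every other stage, a direction that choosing genes by P0-only bins favours here and in the genes that follow. The same gene had 3 E13.5-only, 4 E16.5-only and 5 P3-only bins.

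Nkain2, whose product interacts with the sodium pump, had 14 P0-only bins. Its values, in the same order, were 52.1 kb and 58.6 kb (E13.5), 174 kb and 148 kb (E16.5), 211 kb and 216 kb (P0), and 186 kb and 181 kb (P3), so that P0 was the highest stage. Grik2, a kainate receptor subunit gene, had 12 and no P3-only bin. Its called length was 86.9 kb in P0 het and 83.1 kb in P0 KO, 47.6 kb and 54.9 kb in the P3 lists, and 90.2 kb and 80.4 kb in the E16.5 lists. Grik2 was thus about as widely called at E16.5 as at P0. Ptprd, a receptor tyrosine phosphatase gene, also had 12, but 39 E16.5-only bins, and its called length was highest in E16.5 het with 297 kb, against 209 kb in P0 het. Lrp1b, a receptor gene of the LDL receptor family, had 13 P0-only and 13 E16.5-only bins. The others were Cntnap5a, Csmd3, Inpp4b, Lsamp and Marchf1, with 10 each. Of these, Inpp4b, a phosphoinositide phosphatase gene, had no E13.5-only or E16.5-only bin and 1 P3-only bin, and its called length was 63.9 kb in P0 het and 71.2 kb in P0 KO against 46.96 kb and 45.8 kb in the E16.5 lists and 48.5 kb and 55.8 kb in the P3 lists.

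**Figure D5:**
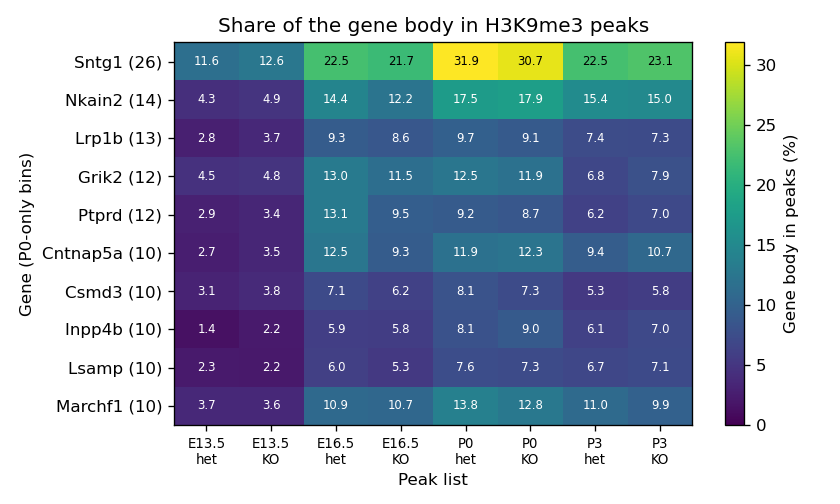
Share of the gene body covered by H3K9me3 peaks (colour and number, percent) in the 8 lists (x axis) for the 10 genes with the most P0-only bins (y axis, number of bins in brackets). Sntg1 has the highest values, with both P0 lists above the other 6, while Ptprd is highest in E16.5 het.

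Relative to gene length, the largest share was found in Irgc1, a gene of the immunity-related GTPase family. Its 4 P0-only bins were 29.1% of the 13.8 kb gene body. Called length was 6.61 kb in P0 het and 6.67 kb in P0 KO. It was 1.91 kb and 1.93 kb in the E16.5 lists, 1.001 kb in P3 KO and 0 in the other 3 lists. Acp7, which encodes an acid phosphatase, had 3 bins and 4.15 kb in P0 het and 5.55 kb in P0 KO, against 2.002 kb (het) and 2.695 kb (KO) for E16.5, and no call at E13.5 or P3. Ugt2b36, a glucuronosyltransferase gene, had 3.08 kb in P0 het and 3.67 kb in P0 KO and at most 0.288 kb in any other list. For Scd3, a fatty acid desaturase gene, the values were 5.31 and 7.20 kb at P0 and at most 2.42 kb in any other list, and for Hkdc1, a hexokinase family gene, 3.11 and 3.62 kb at P0 and at most 1.23 kb elsewhere. The other 5 of the 10 genes ranked by this share were E330021D16Rik, Gm5150, Cyp2j8, Vmn2r120 and Vmn2r78, with 9.70 to 42.1 kb called at P0. In all 10 genes both P0 lists exceeded the other 6, a direction that the ranking itself favours. Ugt2b36, Cyp2j8, Vmn2r120 and Vmn2r78 belong to multigene families, where calls are less certain.

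Genes of the H3K9me3 machinery and of germ cell development held few P0-only bins, at shares near the background in the lists that had 2. A P0-only bin was present in 2 of 27 genes of H3K9 methylation and silencing (7.41%), in none of 8 H3K9 demethylase genes, in none of 24 piRNA pathway genes, in 2 of 25 germ cell and spermatogonial genes (8%) and in 1 of 27 meiosis genes (3.70%). The background is 7.06% of genes. The genes were Setdb2, a H3K9 methyltransferase gene; Hells, a chromatin remodeller gene; Kit, a receptor of differentiating spermatogonia; Eomes, a T-box transcription factor; and Hormad1, a protein of the meiotic chromosome axis. Each had 1 bin. Setdb2 carried 2.76 kb in P0 het and 3.02 kb in P0 KO, 1.31 and 1.56 kb at P3, and no embryonic call. Hells carried 2.53 and 5.77 kb at P0, 2.35 and 5.96 kb at P3 and none in the embryonic lists, so its P3 values were close to those at P0.

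Imprinted genes held P0-only bins in 2 of 31 cases (6.45%, against 7.06% of all genes): 6 bins in Usp29 and 1 in Rasgrf1. Usp29 carried 18.8 kb in P0 het and 22.6 kb in P0 KO, against 5.97 kb and 7.18 kb for E16.5, 13.53 kb and 13.2 kb for P3, and 14.4 kb and 23.3 kb for E13.5, and it had 7 E13.5-only bins. Its calls were thus lower at E16.5 than at the stages before and after. Genes of somatic testis cells had such bins in 5 of 22 cases (22.7%): Adgre1, Fshr, Ptprc, Hsd3b1 and Myh11. Fshr, the receptor for follicle-stimulating hormone in Sertoli cells, had 3 bins and carried 19.2 kb in P0 het and 18.2 kb in P0 KO, 17.7 kb and 19.4 kb in the P3 lists, and 10.3 kb and 9.45 kb in the E16.5 lists. Apart from Hsd3b1 these genes were 97.7 to 216 kb long, against a median of 17.5 kb for all genes. Per Mb of gene body the list had 11.3 P0-only bins, the highest density of the 16 lists, against 2.54 for all genes and 2.67 for genes of 100 to 500 kb. This density rests on 11 bins. Of the 22 genes, 5 held an E13.5-only bin, 3 an E16.5-only bin and 3 a P3-only bin. Of all 20665 genes it was 1559, 1354 and 3444 in the same order. Adgre1 carried 37.7 kb in P0 het and 45.3 kb in P0 KO, and 32.9 kb and 30.1 kb in the E16.5 lists. Ptprc carried 5.19 kb in P0 het and 10.7 kb in P0 KO, and 4.63 kb and 12.4 kb in the P3 lists. The lists hold no measure of how many cells of other types were present, and their part in these calls was not tested.

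Of the gene families, grouped by symbol, 21 of 391 Zfp genes (5.37%), 6 of 1104 olfactory receptor genes (0.543%), 23 of 354 vomeronasal receptor genes (6.497%), 3 of 67 protocadherin genes (4.48%), 9 of 174 developmental transcription factor genes (5.17%), none of 112 keratin and keratin-associated genes and none of 75 histone genes held a P0-only bin in the body. The families differ in gene length, so bins per Mb of gene body are given as well: 2.19 for Zfp, 3.30 for olfactory receptor, 9.60 for vomeronasal receptor and 1.58 for protocadherin genes, against 2.54 for all genes. The vomeronasal receptor genes held 35 bins in 3.65 Mb, with 3 each in Vmn2r1, Vmn2r2 and Vmn2r120. Vmn2r2 carried 10.1 kb in P0 het and 9.46 kb in P0 KO, 8.55 kb and 6.84 kb in the E16.5 lists, and 2.399 kb and 4.18 kb in the P3 lists. Of the vomeronasal receptor genes 16 held an E16.5-only bin and 3 a P3-only bin. With 5 kb on each side, 73 olfactory receptor genes (6.61%) and 39 vomeronasal receptor genes (11.0%) had a P0-only bin, against 9.42% of all genes.

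The long genes of neuronal adhesion and signalling held P0-only bins most often: 39 of 76 adhesion and axon guidance genes (51.3%) and 45 of 181 ion channel and receptor genes (24.9%), with 3.91 and 3.56 bins per Mb. All genes of 500 kb and over had 3.53 bins per Mb, and the classes that hold the median lengths of these lists (166 kb and 56.0 kb) had 2.67 and 2.04. Of the adhesion and axon guidance genes, 16 held an E13.5-only, 38 an E16.5-only and 34 a P3-only bin. Of the ion channel and receptor genes it was 28, 43 and 73, so this trait was not particular to P0. Among the 3 Zfp genes with the most P0-only bins, Zfp119b, 17.9 kb long, had calls at P0 alone. It had 2 P0-only bins, P0 coverage of 1.97 kb (het) and 2.03 kb (KO) and no called base pair in the other 6 lists. Zfp804b, 575 kb long, had 7 P0-only bins and 11 E16.5-only bins, and its called length was 135 kb and 123 kb in the P0 lists and 125.1 kb and 116 kb in the E16.5 lists. Zfp704 had 2 P0-only and 6 P3-only bins, and its called length was higher in the P3 lists (18.6 kb and 22.2 kb) than in the P0 lists (8.39 kb and 14.9 kb). Among ion channel genes, Kcnb2, a potassium channel subunit gene, had 7 P0-only bins. Kcnb2 carried 34.8 kb in P0 het and 40.0 kb in P0 KO, 25.6 kb and 25.3 kb in the E16.5 lists, and 26.7 kb and 35.6 kb in the P3 lists. Of the protocadherin genes, which encode homophilic adhesion proteins, Pcdh15 had 7 P0-only bins beside 16 E16.5-only bins. Pcdh9 had 4 and Pcdh7 had 2. Pcdh7 carried 13.8 kb in P0 het and 12.4 kb in P0 KO, more than in any other list, where the highest value was 9.69 kb in E13.5 KO. No miRNA hairpin of the 919 on autosomes had its midpoint in a P0-only bin. Since P0-only bins were 0.449% of all autosomal bins, few hits among 919 positions would be looked for, and no result about hairpins is drawn.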

How the data were processed

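H3K9me3 ChIP-seq was deposited for 16 samples, 2 for each of 4 stages and 2 genotypes, beside 16 histone H3 samples that were not used here. The submitters' processing notes name Bowtie2 2.3.4.1, HOMER 4.10, deepTools 3.5.0, cutadapt 1.18, bcl2fastq 2.20 and build mm10, without their roles; the peak threshold, control and pooling are not given in the sources used here. The deposited lists give peak start and end in bp and no height, p-value or depth, so no test between groups was made. Each list was assigned to its group by the stage and genotype in its name.

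Lists were read with Python 3.11.15, numpy 2.4.6 and pandas 2.3.3. Covered base pairs were summed in 1 kb bins from position 0, up to the last peak of each autosome. The rule was checked on constructed lists with known P0-only bins. Runs, neighbouring bins, RefSeq gene bodies (GRCm38.p6, without exons) and start windows were then described. Of 20665 genes, 16457 have a start window, none on chromosome 18. Intervals are 95% Wilson intervals (scipy 1.17.1). Coordinates are 1-based. Named items are the 10 longest runs, the 10 genes with the most bins and with the largest share of the body (at least 3 bins), the 5 longest stage-specific P0 peaks per genotype, the 3 fullest 1 Mb windows, listed genes with a bin, and the 5 start windows with the longest runs. Of families defined by symbol, the 3 leading genes are eligible. Members and lists were chosen with earlier results of these data known. Alternatives were bins of 2 kb, bins shifted by 500 bp, and thresholds of 25%, 75% and any base pair. Further alternatives were no base pair at other stages, equal peak numbers, and peaks above the most common length only. For equal peak numbers, the 50191 longest autosomal peaks of each list were kept.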

Additional observations from a re-analysis of the deposited data

Results flagged for a closer look

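Chromosome X was outside the autosomal rule. By the same rule it held 1008 P0-only bins in 791 runs, which is 8.23% of its 12248 bins called in both P0 lists (95% Wilson interval 7.76 to 8.73%). The autosomes ranged from 3.53% to 5.42%. The signal lies on a chromosome that the comparisons above did not use, which is why it is listed here.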

How the results depend on the processing

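The number of P0-only bins (11053) was 6042 with no base pair allowed at other stages and within 1.5 times under 6 other settings. With 2 kb bins it was 5523, which is 11046 kb against 11053 kb, so the total length was nearly equal. The number of runs (9008) was 5258 with 2 kb bins, 4914 with no base pair at other stages and 4716 at equal peak numbers. The genic share (22.7%) was 23.9% at a threshold of 25%, 20.9% at 75% and 24.6% at any base pair. It was 23.7% with no base pair at other stages, 18.1% at equal peak numbers (the 50191 longest per list) and 21.5% with peaks above the most common length. The share next to a call of another stage (61.8%) was 55.3%, 59.6%, 50.1%, 30.2%, 55.1% and 54.0% in the same order, and 55.5% with 2 kb bins; the value of 30.2% follows from leaving out members partly called elsewhere. The ratio of P0-only to E13.5-only bins (2.07) was 1.94, 2.28, 1.78, 1.61, 0.951 and 2.299 in that order. Its direction reversed at equal peak numbers, a setting that removes the shortest peaks and more of them from longer lists. The cause was not tested. The ratio to E16.5-only bins (0.834) was 0.860 at 25%, 0.801 at 75%, 0.735 with no base pair at other stages, 0.596 at equal peak numbers and 0.801 with peaks above the most common length. The ratio to P3-only bins (0.757) was 0.779 at 25%, 0.552 at equal peak numbers and 0.737 with peaks above the most common length. No paired analysis was possible because each group has 1 peak list, so replicates could neither be paired nor left out. Depth is unknown, so an uncalled bin may be unmarked or below the calling limit.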
